A study of Mus musculus with 2 samples.

Results

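The genes described here are 40 members of the Wnt signalling pathway, chosen by name as ligands, receptors, secreted inhibitors, intracellular components and target genes, out of 27594 genes or transcripts with a probe on the array. They were followed in the skin of Pla2g2f-Tg/+ mice, which carry a transgene for the secreted phospholipase A2 Pla2g2f, and of littermate controls that lack it. All mice were 25 days old on a C57BL/6 background, and RNA from 4 animals was pooled for each genotype. Both pools were hybridised together on 2 two-colour Agilent arrays with the dyes exchanged, the transgenic pool carrying Cy5 on array 1 and Cy3 on array 2. The sources used here name no promoter for the transgene.

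Wnt proteins are secreted lipid-modified ligands. They bind Frizzled receptors together with the co-receptors Lrp5 and Lrp6, which stabilises beta-catenin and lets it act with factors of the TCF/LEF family on target genes. In skin the pathway is known for starting hair follicle growth and for keeping the hair matrix and dermal papilla active, and secreted inhibitors in the dermis and follicle limit its reach.

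The labels do not describe the arrays as carrying separate pools, so together they count as 1 replicate, which leaves no test between the genotypes. Each gene has a log2 ratio of transgenic over control from each array, and the difference between the arrays is a technical spread. A gene was called higher or lower when it was at least 2-fold apart in the same direction on each array. All values are on the arrays' own scale, on which the median of the 10451 measured genes lay at -0.0079. On that scale the spike-in controls had a mean shift of 0.47 log2 towards the transgenic pool, so centring on them lowers every ratio by that amount. Of all genes called, 68.8% were higher on the arrays' own scale and 26.7% when centred on the spike-ins. The skin label was borne out by the keratins Krt5, Krt14, Krt1 and Krt10, all well above background in both pools on array 1. Of these, Krt1 and Krt14 were themselves called higher, at means of 4.79-fold and 2.17-fold. Because skin is a mixture, fewer cells of a type and less RNA per cell cannot be told apart.

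Every one of the 40 members had a probe, 63 probes in all, and 24 members were measured, meaning that array 1 showed them well above background in the channel of either pool or of both. These were 5 of 12 ligands, 8 of 11 receptors, 6 of 8 secreted inhibitors, 3 of 6 intracellular components and both target genes. The 16 others were dim in both pools. They were the ligands Wnt3a, Wnt5a, Wnt5b, Wnt7a, Wnt7b, Wnt10b and Wnt16, the ligand acyltransferase Porcn, the receptors Fzd3, Fzd8 and Lrp6, the inhibitors Dkk1 and Dkk2, and the intracellular genes Axin1, Gsk3b and Dvl2. Their brightest probes gave processed signals of 76.5 to 218 in the transgenic pool and 85.0 to 239 in the control pool. The lowest signals well above background were 190 and 199, which these ranges overlap. Being well above background is scored spot by spot, and these probes did not pass in either channel, so no ratio is given for them.

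Of the 24 measured members, 2 rose, 1 fell and 21 did not pass the size rule. Sfrp2 and Sfrp4 rose and Wif1 fell, and all 3 encode secreted inhibitors that bind Wnt proteins outside the cell. Across all measured genes 3.72% were higher and 1.68% lower by the same rule, against 8.33% and 4.17% of the measured members, which is 2 genes and 1 gene. Below 0 on both arrays were 16 of the 24 measured members, 66.7%, and 35.7% of all measured genes. Above 0 on both arrays were 2 members, against 35.3% of all genes, and 6 members differed in sign between the arrays. The median of the measured members was -0.33. The members were chosen by name but with earlier results of these data known, so these shares are descriptions only.

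**Figure D1:**
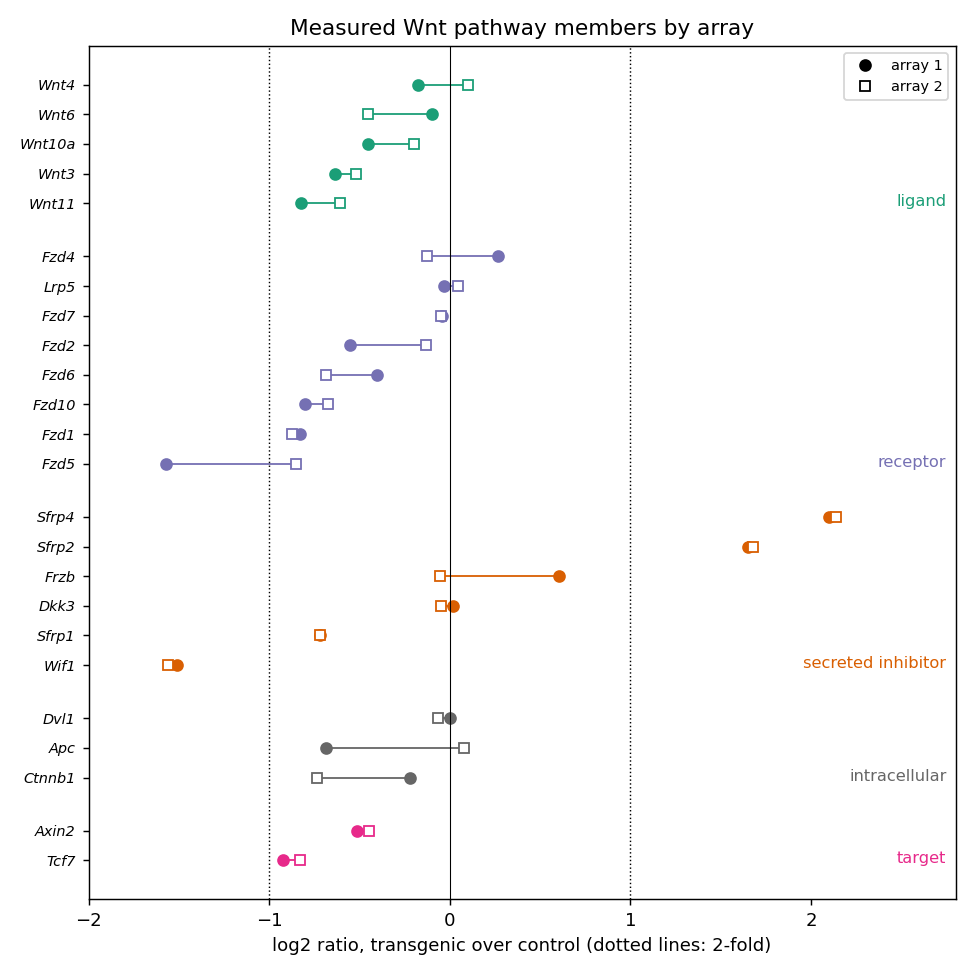
Log2 ratios of transgenic over control skin for the 24 measured members, grouped by role, with a filled circle for array 1 and an open square for array 2. Dotted lines mark 2-fold: Sfrp4 and Sfrp2 lie beyond it on the right and Wif1 on the left on both arrays, and Fzd5 passes it on array 1 alone.

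The probes behind the 3 called inhibitors and behind Sfrp1, the next largest difference among the inhibitors, show what was hybridised. The first 30 of the 60 bases of each are printed 5′ to 3′, with the position of the whole probe on the array design's mm8 build, all on the plus strand.
Sfrp2 (chr3:83859869-83859928): tcggcatctaagtcttcaaacatttcgttg
Sfrp4 (chr13:19640084-19640143): cacagttgtctgtgtgcatactgtgtaaga
Wif1 (chr10:120503083-120503142): ggctgatatctactcttccttttaggtttt
Sfrp1 (chr8:24913185-24913244): cggaatcagtatagcgtggaaggagacagt

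The secreted inhibitors spread furthest. Sfrp4 (NM_016687), a secreted Frizzled-related protein that binds Wnt ligands through a Frizzled-like domain, had a processed signal of 2285 in the transgenic pool and 532 in the control pool on array 1. Its log2 ratios were 2.10 and 2.14, a mean 4.35-fold rise, and it ranked 70th from the highest of the 10451 measured genes. Sfrp2 (NM_009144), of the same protein family, had 2369 in the transgenic pool and 755 in the control pool. Its log2 ratios were 1.65 and 1.68, a mean 3.17-fold rise, at rank 156. With normexp background correction and loess on array 1, Sfrp2 no longer passed the size rule, at a mean log2 ratio of 1.30, while Sfrp4 did at 1.63. Both genes were well above background in both channels, and the pools were separated on each array by far more than the arrays differed from each other.

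Wif1 (NM_011915), Wnt inhibitory factor, binds Wnt ligands through a domain unrelated to Frizzled. It had a signal of 1524 in the transgenic pool and 4338 in the control pool on array 1. Its log2 ratios were -1.51 and -1.56, a mean 2.90-fold fall, at rank 116 from the lowest. For these 3 called members the arrays differed by at most 0.052 on the log2 scale, while the median difference between arrays was 0.12 over the measured members and 0.23 over all measured genes. The error that the scanner software gives for a single spot on array 1 was larger, 0.26 for Sfrp2, 0.29 for Sfrp4 and 0.25 for Wif1 on the log2 scale.

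The 3 remaining measured inhibitors did not pass. Sfrp1, a close relative of Sfrp2, had 990.0 in the transgenic pool and 1628 in the control pool. Its log2 ratios were -0.72 on each array, a mean 1.64-fold lower level, so it passed 1.5-fold but not 2-fold. The same protein family thus held 2 called members above 0 and a member below 0 on both arrays. Frzb, another secreted Frizzled-related protein, had log2 ratios of 0.60 and -0.056, and the arrays disagreed in sign. Dkk3, a dickkopf family member, lay at 0.017 and -0.049, close to equal levels in both pools. The median of the 6 measured inhibitors was 0.13, 0.31 on array 1 and -0.052 on array 2, and says little about members this far apart.

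**Figure D2:**
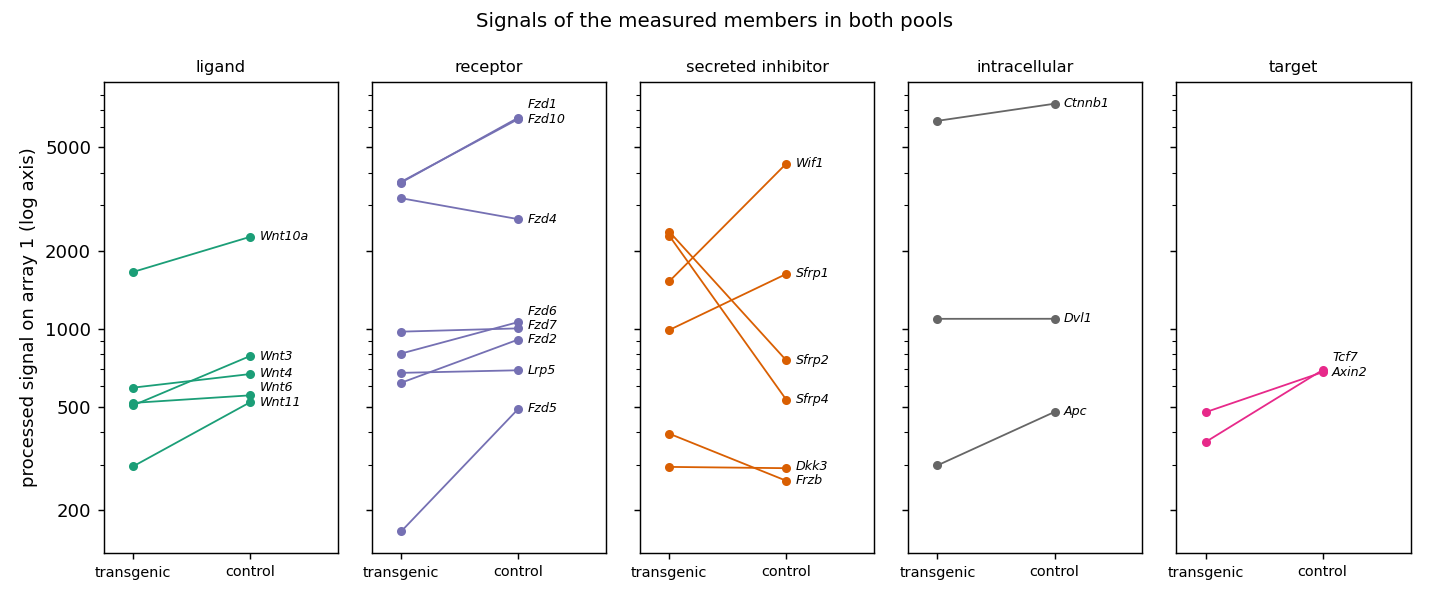
Processed signals of the measured members on array 1, on a log axis, with the transgenic pool at the left and the control pool at the right of each panel. Lines join the signals of a probe and only their slopes are to be compared, since probes differ in brightness: in the inhibitor panel Sfrp2 and Sfrp4 slope down towards the control pool and Wif1 and Sfrp1 slope up.

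None (0) of the 5 measured ligands passed the size rule, and 4 were below 0 on both arrays. Wnt11, a ligand known mainly for signalling without beta-catenin, had a signal of 295 in the transgenic pool and 521 in the control pool, with log2 ratios of -0.82 and -0.61. It was the only ligand past 1.5-fold on each array. Wnt3, a ligand of the beta-catenin branch, had 507 in the transgenic pool and 786 in the control pool, with log2 ratios of -0.63 and -0.52. Its second measured probe, dim in the transgenic channel, gave a mean of -0.95. Wnt10a, a ligand needed for hair and tooth formation, had log2 ratios of -0.45 and -0.20, and Wnt6 had -0.097 and -0.45, with a mean of -0.50 from its other measured probe. Wnt4 lay at -0.17 and 0.10, on opposite sides of 0. The median of the measured ligands was -0.32.

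The receptors had a median of -0.44, with 0 of 8 past the size rule and 6 below 0 on both arrays. Fzd1 had a signal of 3663 in the transgenic pool and 6513 in the control pool, with log2 ratios of -0.83 and -0.87. Fzd10 had 3687 in the transgenic pool and 6437 in the control pool, with log2 ratios of -0.80 and -0.67, and its other measured probe gave a mean of -0.60. Both Frizzled genes were past 1.5-fold on each array, and the arrays differed by 0.044 for Fzd1 and by 0.13 for Fzd10. Fzd5 had 166 in the transgenic pool, not well above background, and 492 in the control pool. Taking the lowest well-above-background signal for the transgenic channel, it was at least 2.59-fold lower on array 1, and its log2 ratios were -1.57 and -0.85. That bound rests on array 1 alone and is open to dye bias.

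Fzd6, a Frizzled with a known part in hair orientation, had log2 ratios of -0.40 and -0.68, and Fzd2 had -0.55 and -0.13. Fzd7 was nearly equal in both pools, at -0.042 and -0.050, as was the co-receptor Lrp5 at -0.033 and 0.045. Fzd4, the receptor known for retinal vessel growth, lay at 0.27 and -0.12. Among the Frizzled genes well above background in both pools, means ran from -0.85 for Fzd1 to 0.072 for Fzd4.

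Inside the cell, Ctnnb1, the gene for beta-catenin, had 6333 in the transgenic pool and 7374 in the control pool by its brightest probe, with log2 ratios of -0.22 and -0.73. Its 3 measured probes gave means of -0.55 to -0.46. They ran from -0.61 to -0.22 on array 1 and from -0.73 to -0.49 on array 2. Apc, a scaffold of the complex that degrades beta-catenin, had log2 ratios of -0.68 and 0.081 by its brightest probe and a mean of -0.51 by another, which was dim in the transgenic channel. Dvl1, which relays the signal from Frizzled, lay at -0.00068 and -0.065. None (0) of these 3 genes passed, and their median was -0.30.

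Both target genes were lower on each array without reaching 2-fold. Tcf7, which encodes the transcription factor TCF1 and is itself induced by the pathway, had a signal of 366 in the transgenic pool and 694 in the control pool. Its log2 ratios were -0.92 and -0.83, a mean 1.84-fold lower level. Axin2, a feedback inhibitor widely used as a readout of beta-catenin activity, had 477 in the transgenic pool and 681 in the control pool, with log2 ratios of -0.51 and -0.45, a mean 1.39-fold lower level. For both genes the arrays differed by less than 0.10.

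At 1.5-fold on each array, 2 members were higher and 7 were lower, namely Wif1, Fzd5, Tcf7, Fzd1, Fzd10, Sfrp1 and Wnt11. That is 8.33% and 29.2% of the measured members, against 8.26% and 3.8% of all measured genes. Centred on the spike-ins, the same 7 genes passed 2-fold, so that the split was 2 higher and 7 lower, against 1.66% and 4.54% of all genes. Sfrp2 and Sfrp4 stayed above 2-fold there, at means of 1.19 and 1.65, and Wif1 lay at -2.0. On that scale Fzd4, Lrp5 and Frzb turned below 0, at -0.40, -0.46 and -0.20, so the sign of these 3 depends on the scaling.

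**Figure D3:**
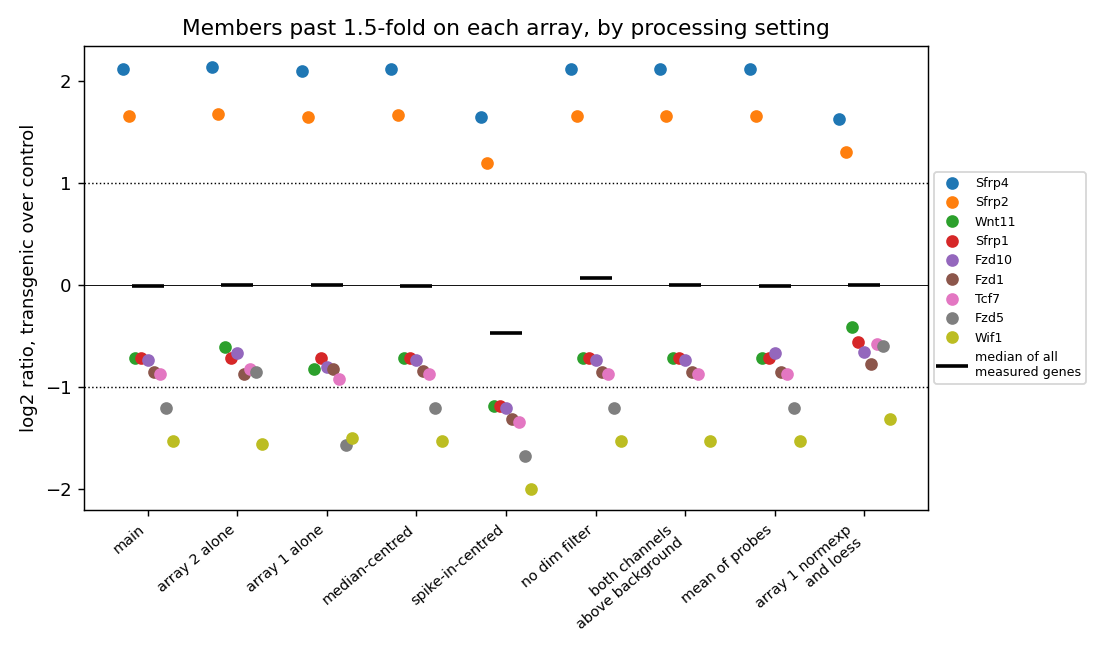
Log2 ratios of the 9 members past 1.5-fold on each array under each way of processing, with a black bar at the median of all measured genes. Under spike-in centring that median moves to -0.48 and the 7 lower members pass -1, while Sfrp2 and Sfrp4 stay above 1 in every setting shown.

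The 250 bases before the RefSeq start (GRCm38.p6) were searched for the TCF/LEF motif CTTTGAT or CTTTGAA on either strand, since the target members lay below 0 together. The table held promoters of 25 members, 16 of them measured. A match was found for 3 of the 25, Dkk1, Wnt11 and Wnt5b, or 12.0%, beside 8.63% of all 27025 genes in the table. Among the 16 measured members only Wnt11 had one, or 6.25%. The targets Axin2 and Tcf7 were in the table and held no match, and Sfrp4 had no promoter in it. The windows are printed for Wnt11, whose match is in capitals, and for Sfrp2 and Wif1, which moved in opposite directions and hold no match, all on the plus strand and 5′ to 3′.
Wnt11 (chr7:98834862-98835111): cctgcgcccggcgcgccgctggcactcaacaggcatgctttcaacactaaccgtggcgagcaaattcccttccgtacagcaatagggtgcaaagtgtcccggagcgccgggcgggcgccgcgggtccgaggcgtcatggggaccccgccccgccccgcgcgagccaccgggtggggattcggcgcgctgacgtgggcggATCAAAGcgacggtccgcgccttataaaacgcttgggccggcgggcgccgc
Sfrp2 (chr3:83766071-83766320): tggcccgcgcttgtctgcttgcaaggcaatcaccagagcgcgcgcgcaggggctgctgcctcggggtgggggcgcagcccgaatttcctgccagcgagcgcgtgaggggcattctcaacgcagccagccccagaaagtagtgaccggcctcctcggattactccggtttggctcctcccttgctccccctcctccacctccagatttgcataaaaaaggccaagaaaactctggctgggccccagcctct
Wif1 (chr10:121033754-121034003): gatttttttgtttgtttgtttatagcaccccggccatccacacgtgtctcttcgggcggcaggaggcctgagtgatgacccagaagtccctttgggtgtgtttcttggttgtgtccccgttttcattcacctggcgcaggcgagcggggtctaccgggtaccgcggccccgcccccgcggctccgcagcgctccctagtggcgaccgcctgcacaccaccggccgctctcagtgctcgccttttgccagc
RefSeq gives Wnt11 another start, and the window before it (chr7:98838595-98838844) holds no match. The capitals in the Wnt11 window are the reverse complement of CTTTGAT. A match describes letters only and is no evidence of binding.

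Beyond the members, 89 further genes of the pathway were listed by role, of which 56 were measured, with 1 higher, 4 lower and 51 not called. Over all measured genes 3.72% were higher and 1.68% lower. The gene counted as higher was the ligand Wnt2, which was measured only through the transgenic channel of array 1, so the filter kept it for the pool in which it is high. It had a signal of 340 in the transgenic pool and 88.3, not well above background, in the control pool, a bound of at least 1.71-fold higher, which does not reach 2-fold. The log2 ratios as deposited were 1.95 and 2.21. Of 3 measured ligands and agonists, Wls, which carries Wnt proteins to the cell surface, lay at -0.68 and -0.63. None (0) of 9 measured further receptors and 0 of 6 further inhibitors passed. Kremen2, a receptor for dickkopf proteins, was dim in the transgenic channel, at log2 ratios of -1.61 and -0.68. Reck, which helps Wnt7 ligands signal, lay at 0.77 and 0.47, and Lgr5, an R-spondin receptor and follicle stem cell marker, at -0.41 and -0.65. Among the inhibitors, Znrf3 and Rnf43, ubiquitin ligases that remove Frizzled from the cell surface, had means of -0.65 and -0.59, Znrf3 being dim in the transgenic channel, and Igfbp4 had a mean of 0.41 that turned to -0.058 with spike-in centring.

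Lef1, a TCF/LEF factor of the hair matrix, was the only further intracellular gene of 19 that passed. It had a signal of 2047 in the transgenic pool and 6249 in the control pool, with log2 ratios of -1.61 and -1.69, and its second measured probe gave a mean of -1.50.

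Further target genes had a median of -0.88 over 11 measured, of which 3 fell, 0 rose and 9 were below 0 on both arrays. Msx2, a homeobox gene of the hair matrix, had a signal of 939 in the transgenic pool and 3450 in the control pool, with log2 ratios of -1.88 and -2.15. Bambi, a decoy receptor of BMP signalling, had 709 in the transgenic pool and 2987 in the control pool, with log2 ratios of -2.07 and -1.86. Nkd2, a feedback inhibitor that binds Dishevelled, had log2 ratios of -1.23 and -1.13. Several of these genes are also known as hair follicle genes or as targets of other pathways, and the list is no measure of beta-catenin activity by itself. Myc and Cd44 lay above 0 on both arrays, at means of 0.32 and 0.15, without passing, and both lay below 0 with spike-in centring, at -0.15 and -0.32.

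**Figure D4:**
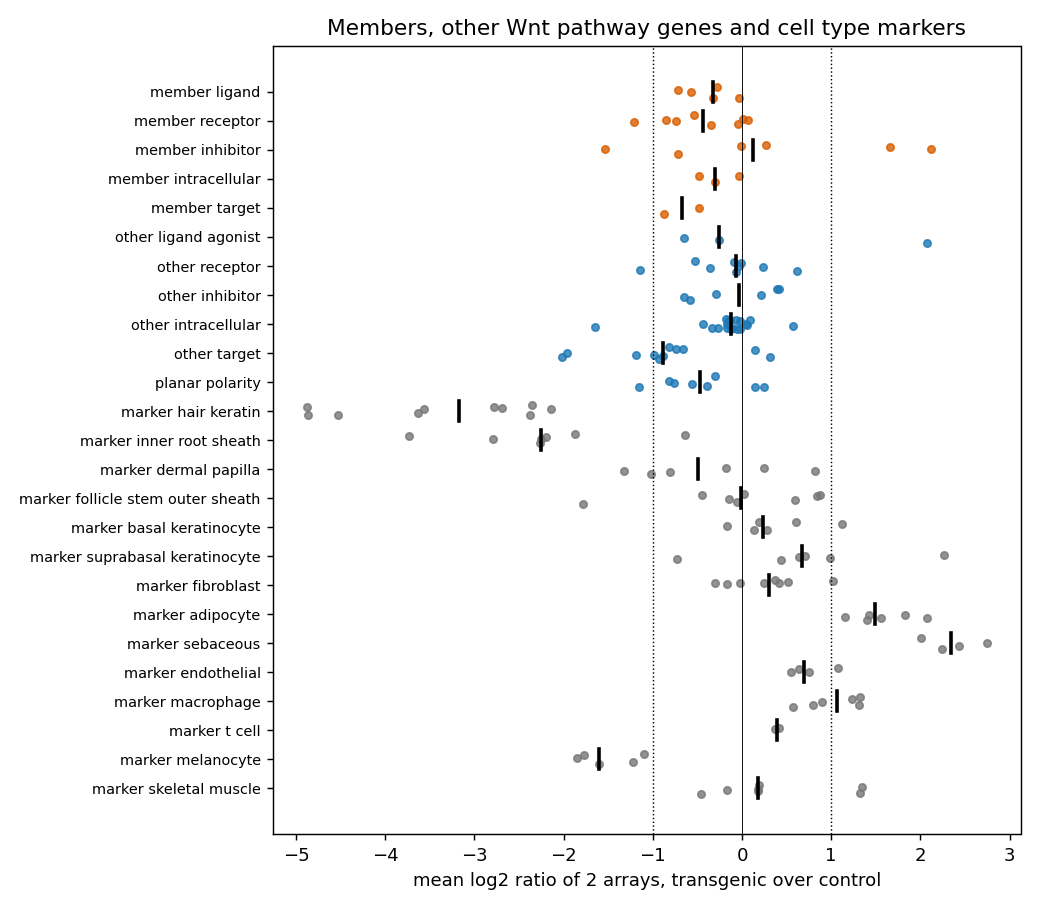
Mean log2 ratios of transgenic over control for measured genes in each list, 1 point a gene, with members in orange, further pathway genes in blue, cell type markers in grey and a black bar at each list's median. The member inhibitors span from -1.53 to 2.12, further targets centre on -0.88 and hair keratins on -3.17.

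Markers of skin cell types were examined beside the members. Across all measured genes 1.68% were lower by the size rule. All 10 measured hair keratins of 13 listed were lower, 5 of them dim in the transgenic channel, with a median of -3.17 and a summed signal on array 1 of 10580 in the transgenic pool and 86600 in the control pool. Of 10 listed inner root sheath genes 7 were measured and 6 were lower, Krt26 among them dim in the transgenic channel. Their summed signals were 65204 in the transgenic pool and 297240 in the control pool. Dermal papilla genes, markers of the mesenchyme that directs the follicle, had 6 of 14 measured, and they went both ways. Alpl was lower, at log2 ratios of -1.28 and -1.38, while Igfbp3 lay at 0.67 and 0.96 and Sox18 at 0.29 and 0.21. The other measured genes, Vcan, Enpp2 and Trps1, were below 0 on both arrays, and Vcan was dim in the transgenic channel. The list had summed signals of 6063 in the transgenic pool and 7231 in the control pool. Corin and Sox2 were among the 8 listed genes that were not well above background in either pool. All 5 measured melanocyte genes of 6 listed were lower, with a median of -1.60 and summed signals of 11885 in the transgenic pool and 27264 in the control pool. These lists lay below 0 in the median together with the targets, Lef1 and Wif1, and their part in those differences was not tested.

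Beside the rise of Sfrp2 and Sfrp4, the 8 listed fibroblast genes were all measured and 0 passed, with summed signals of 431345 in the transgenic pool and 413584 in the control pool. The largest signals in these sums were those of Col1a1, Col1a2 and Col3a1. The list's median log2 ratio was 0.30, with 5 genes above 0 and 3 below 0 on both arrays. Centred on the spike-ins that median was -0.17. All 6 measured adipocyte genes of 7 listed were higher, with summed signals of 343376 in the transgenic pool and 106472 in the control pool. Of these sums Fabp4 alone gave 231178 and 75394. All 4 measured sebaceous genes of 7 listed were also higher, with 40904 in the transgenic pool and 7618 in the control pool. Macrophage genes had 3 higher of 6 measured, 1 of them, C1qa, dim in the control channel. Their summed signals were 25617 in the transgenic pool and 10975 in the control pool, of which Lyz2 alone gave 22467 and 9424. The part of these cell types in the rise of Sfrp2 and Sfrp4 was not tested. Follicle stem cell and outer sheath genes had a median of -0.015 over 8 measured, of which 1 was lower, Krt75. Higher were also 1 of 6 measured basal and 1 of 6 suprabasal keratinocyte genes, 1 of 4 endothelial and 2 of 7 skeletal muscle genes. Across all measured genes 3.72% were higher.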

How the data were processed

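Total RNA (500 ng) was labelled and hybridised to 2 arrays, per the labels' protocols. The deposited scanner file of array 1 gives intensity values. The software was Agilent Feature Extraction 9.5.1.1. Per the file headers, it removed a fitted spatial surface as background, applied linear and LOWESS dye normalisation, and put surrogates in place of dim intensity values, which compresses their ratios. Its deposited error of the log ratio, a score of the spot, is per the file headers from an error model. The deposited value table holds log10 of Cy5 over Cy3. For array 1 it matched the processed signals within 1e-08. For array 2 no scanner file was used here. Its column correlated with that of array 1 at -0.579 over 41534 spots that are not controls, as a dye exchange left unturned would, while the 10 spike-in probes, which follow the dye, correlated at 1.00 with a slope of 1.00. The column medians over all spots, controls included, were 0.0145 and -0.0243, so neither column was centred over all spots. Over the measured genes the median log2 ratios were 0.00098 on array 1 and -0.0041 on array 2. The sources used here name no later step.

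Values were converted to log2 and array 2 was turned. Control spots and 29 outlier spots were left out, and 0 other spots were saturated on array 1. The filter kept 13335 of 41167 probes, those well above background for either pool on array 1, and the brightest stood for a gene. Over 10 probes printed 10 times log2 ratios had median SDs of 0.094 (array 1) and 0.097 (array 2). Precision is limited by having 2 arrays, and slide or scan could not be tested as a batch. A bound for a dim channel used the lowest signal well above background, or the probe's own where higher. Names came from a RefSeq table (GRCm38.p6) by accession for 24362 probes, symbol for 6306 and synonym for 2424, and 8075 kept the array's name. The order of the array's coordinates gave the RefSeq strand for 99.6% of 19481 probes. The size rule was tested on simulated data, where it missed most changes of 2-fold. Such changes lie at the cut and must pass it on each array, so this follows from the rule itself. A gene that was not called can therefore still differ by about 2-fold. The simulated spread came from differences between the arrays alone, with no variation between mice. The rule was not tested on further pools of mice. Tools were Python 3.11.15, pandas 2.3.3, R 4.3.3 and limma 3.58.1. The members and lists were chosen with earlier results of these data known. Named genes are all measured members, further pathway genes past the rule or up to 3 with the largest means a list, and up to 2 markers a list. Myc, Cd44, Wls, Vangl1, Scrib, Fabp4, Lyz2 and the markers beyond 2 a list were chosen after their values were seen. Alternatives were each array alone, median or spike-in centring, other filters on dim probes, the mean of probes, normexp (offset 50) with loess for array 1, and a 1.5-fold rule.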

Additional observations from a re-analysis of the deposited data

How the results depend on the processing

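Sfrp2, Sfrp4 and Wif1 kept their direction under all 8 alternatives that apply to a single gene, with mean log2 ratios of 1.19 to 1.68, 1.63 to 2.14 and -2.0 to -1.32. For most settings this was fixed in advance. A call already requires the same direction on each array, and centring moved ratios by 0.47 or less. Other filters or the mean of probes cannot change a gene with 1 bright probe. Normexp with loess changed array 1 alone and left array 2 as it was. To turn a mean it would have needed an opposite ratio on array 1 larger than that on array 2. With normexp and loess on array 1 only 1 member, Sfrp4, was higher, and 0 further pathway genes were. Over all 10451 measured genes the calls fell there from 389 to 107 higher and from 176 to 56 lower. That setting gave medians of -0.25 for all measured members, -0.25 for ligands, -0.30 for receptors, -0.060 for intracellular members and -0.45 for targets. Centred on the spike-ins, 7 members and 14 further genes were lower, beside 4.54% of all measured genes. The medians were then -0.80 for all members, -0.79 for ligands, -0.91 for receptors, -0.34 for inhibitors, -0.77 for intracellular members and -1.15 for targets. Centring moves every gene by the same amount by construction. With a 1.5-fold rule, 7 members and 13 further genes were lower, beside 3.8% of all measured genes. When a probe had to be well above background for both pools, 0 further genes were higher, since Wnt2 is dim in control skin. Under that filter 243 of all 9186 genes were higher, and the receptor median was -0.34 without Fzd5. With no filter on dim probes the medians were -0.32 for 12 ligands and -0.34 for 11 receptors. With the mean of probes the ligand median was -0.39. From a single array, the lower members numbered 1 to 2, with Fzd5 added on array 1, and the lower further genes 6 to 7. Of all 10451 measured genes 259 to 274 were lower on a single array. The single-array medians were -0.43 to -0.32 for all members, -0.45 on each array for ligands, and -0.22 to -0.065 for intracellular members. The signs of Wnt4, Fzd4, Frzb and Apc turned on array 2 alone and those of Lrp5 and Dkk3 on array 1 alone. The cause of these changes was not tested further. Signal over background is a limit too, since 16 of 40 members gave no ratio.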

Other observations

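Genes of planar cell polarity, the branch of Frizzled signalling that orients cells and hairs in the plane of the skin without beta-catenin, centred on -0.47 (median log2 ratio), with 8 of 12 listed genes measured. Of these 6 were below 0 and 2 above 0 on both arrays, and 0 passed the size rule. Vangl2, a membrane core component, had log2 ratios of -0.94 and -0.70, and Celsr1, the atypical cadherin of the same complex, had -0.60 and -0.93. Its relative Vangl1 lay at 0.28 and 0.21, and Scrib at a mean of 0.14. Prickle2, dim in the transgenic channel of array 1, had -0.87 and -1.44. Centred on the spike-ins, Vangl1 and Scrib turned below 0 and the median was -0.94.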
